A study of Homo sapiens with 6 samples.

Results

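The potassium channel genes are the 87 protein-coding genes of chromosomes 1 to 22, out of 19229 such genes in GENCODE release 44 on GRCh37 (hg19), whose symbols start with KCNA to KCNH, KCNJ, KCNK, KCNM, KCNN, KCNQ, KCNS, KCNT or KCNV. They were taken by symbol, and the set was chosen with earlier results of these data known. The 87 genes comprise 39 voltage-gated subunits, 7 calcium- or sodium-activated channels, 15 inward rectifiers (KCNJ), 15 two-pore channels (KCNK) and 11 auxiliary subunits (KCNAB, KCNE, KCNMB). The question was which of these genes had open chromatin at their promoters and inside their bodies in a breast cancer cell line, and how this differed after knockout of SAP30.

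Potassium channels let potassium ions leave or enter cells down their electrochemical gradient, and so set the membrane potential, cell volume and, in excitable cells, the shape and timing of electrical signals. Voltage-gated channels open on depolarization, calcium-activated channels couple the membrane potential to internal calcium, inward rectifiers and two-pore channels hold the resting potential, and auxiliary subunits alter the gating or trafficking of the pore-forming subunits. Many of these genes are expressed mainly in neurons, muscle or kidney, while a few, among them KCNMA1, KCNN4, KCNH1, KCNK5 and KCNK9, are often studied in breast tumor cells, where the membrane potential bears on calcium entry, migration and division.

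ATAC-seq, in which a transposase cuts accessible DNA and leaves sequencing adapters there, was performed on MDA-MB-231 cells, an established human triple-negative breast cancer line of mesenchymal character. There were 3 libraries of parental cells (Parental) and 3 libraries of SAP30-KO1 cells, which derive from MDA-MB-231 and carry a CRISPR/Cas9 knockout of SAP30, a subunit of the SIN3 corepressor complex. The knockout line is a mixture of several selected and amplified knockout cells, so its cells descend from few founders, and the controls are parental cells rather than cells with a control guide. The study counts the 3 libraries of a group as its n, and the sources used here do not say whether they came from separate cultures, so the spread and the p-values measure only the differences between these libraries, which may be technical.

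Each library had its own list of peak summits, with 29762 to 40650 summits and a median score, the −log10 of the q value, of 5.58 to 6.56. Read counts are not part of the lists. The depth behind a peak is therefore unknown, and a gene without a peak is one at which none was detectable at this depth. Each summit was therefore given its percentile rank within its own list, from 0 to 100, and a gene without a peak was set to 0. SAP30 itself had a promoter peak in all 6 libraries (ranks of 84.7, 64.8 and 81.3 in Parental and 71.8, 49.5 and 89.5 in SAP30-KO1), which does not check the labels because an open promoter does not depend on the targeted sequence. The promoters of all 7 mesenchymal markers examined had a peak in at least 1 library and 5 of them (CAV1, CD44, EGFR, MET and VIM) in all 6, whereas 6 of 8 luminal markers had a peak in at least 1 library and none in all 6. Among the luminal markers GATA3 had a peak in 5 libraries and ERBB3 in 4, and CDH1 and KRT19 had none.

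Promoters of potassium channel genes were mostly without a peak. A promoter peak, a summit within 1 kb of any annotated start site of the gene, was found in at least 1 library for 26 of the 87 genes (29.9%), against 63.1% of all 19229 protein-coding genes. All 6 libraries had a peak at 10 of them (11.5%), against 35.0% of all genes, and the remaining 61 (70.1%) had none in any library, against 36.9%. By subfamily, a peak in any library was present for 11 of 39 voltage-gated genes (4 in all 6 libraries), 4 of 7 calcium- or sodium-activated genes (2 in all 6), 4 of 15 inward rectifiers (1 in all 6), 4 of 15 two-pore genes (1 in all 6) and 3 of 11 auxiliary subunits (2 in all 6). The share was therefore below that of all genes in each subfamily, with the calcium- or sodium-activated channels nearest to it at 57.1%.

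**Figure D1:**
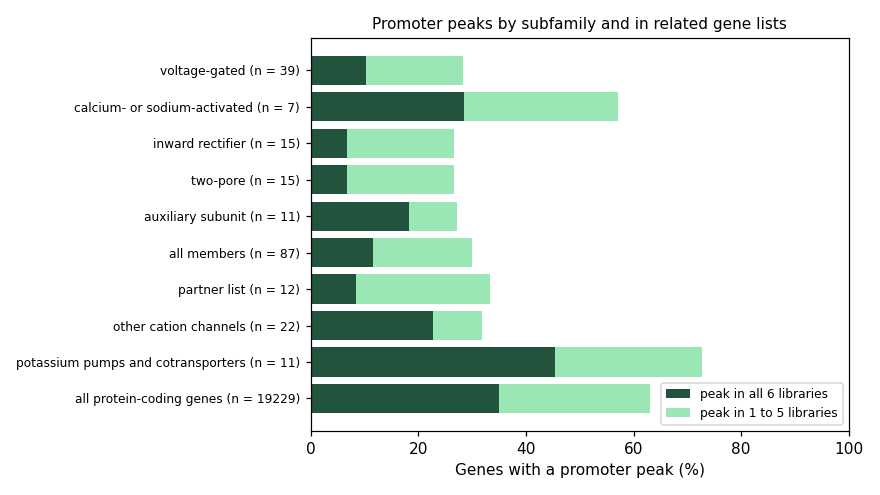
Percentage of genes with a promoter peak (horizontal axis) in each potassium channel subfamily, in all 87 potassium channel genes, in the 3 related gene lists and in all protein-coding genes; the dark part of a bar is genes with a peak in all 6 libraries and the light part genes with a peak in 1 to 5. The bar of all potassium channel genes ends at 29.9% and that of all protein-coding genes at 63.1%.

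The 10 genes with a promoter peak in all 6 libraries covered every subfamily. Among the voltage-gated genes, KCNH1, an ether-a-go-go type channel, had promoter ranks of 96.5, 95.9 and 91.9 in Parental and 97.5, 88.3 and 87.2 in SAP30-KO1. KCNS3, a subunit that makes no channel alone and modifies other voltage-gated channels, had ranks of 71.6, 89.6 and 87.7 in Parental and 76.4, 90.3 and 80.9 in SAP30-KO1. KCNQ5, a pore subunit of the slow M-type current, had 53.7, 66.1 and 79.1 in Parental and 59.5, 85.1 and 76.2 in SAP30-KO1. The groups overlapped for all 3 of these genes, and KCNQ3 is described below.

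Both calcium-activated genes in this set overlapped between the groups as well. KCNN2, a small-conductance channel opened by calcium through calmodulin, stood among the highest, with ranks of 95.0, 88.9 and 95.5 in Parental and 97.5, 90.3 and 93.3 in SAP30-KO1. KCNMA1, the pore of the large-conductance channel gated by calcium and voltage, had 74.4, 90.6 and 77.6 in Parental and 55.3, 82.2 and 70.7 in SAP30-KO1. Of the auxiliary subunits, KCNAB2, a beta subunit of voltage-gated channels, had 93.8, 96.4 and 93.8 in Parental and 93.8, 97.7 and 96.3 in SAP30-KO1, and KCNMB4, a beta subunit of the KCNMA1 channel, had 43.7, 31.4 and 50.7 against 37.6, 47.2 and 80.9. The KCNAB2 peaks were thus within a few percentile points of each other in all 6 libraries, while those of KCNMB4 ranged widely in SAP30-KO1.

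KCNJ10, an inward rectifier known from glia and kidney, had ranks of 68.0, 49.4 and 48.6 in Parental and 1.24, 55.4 and 45.8 in SAP30-KO1, where replicate 1 stood apart from the other two. KCNK1, a two-pore channel with weak inward rectification, had 86.4, 84.7 and 82.2 in Parental and 53.6, 91.2 and 76.7 in SAP30-KO1. In both genes the SAP30-KO1 libraries were more spread than the Parental libraries, and the lowest value was that of SAP30-KO1 replicate 1, the shortest list.

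**Figure D2:**
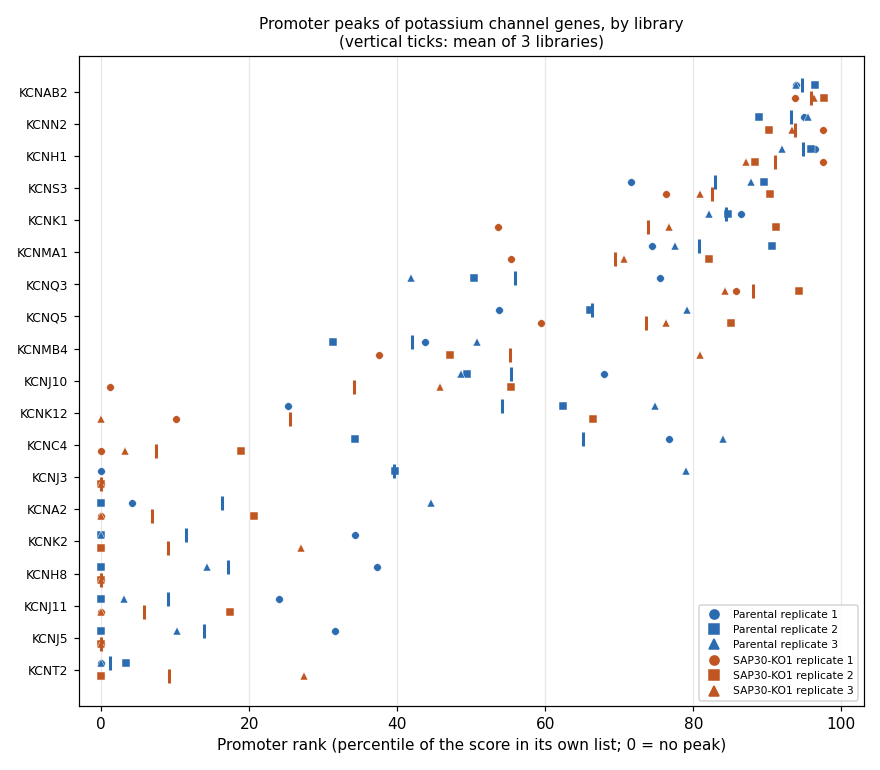
Promoter rank (horizontal axis, percentile of the score within its own list, 0 for no peak) of the 19 potassium channel genes with a promoter peak in at least 2 libraries; blue points are Parental and orange points SAP30-KO1 libraries, with the shape giving the replicate and the vertical tick the mean of 3 libraries. KCNC4 lies between 34.3 and 84.1 in Parental and between 0 and 19.0 in SAP30-KO1, and KCNQ3 between 41.9 and 75.5 in Parental and between 84.3 and 94.3 in SAP30-KO1.

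Promoter ranks were then compared between Parental and SAP30-KO1. With 3 libraries in each group, the 2 groups are apart when all 3 ranks of one lie above all 3 of the other, which gives the smallest p an exact permutation test over the 20 assignments allows, 0.1. Among the 26 genes with a promoter peak, 1 was apart and higher in SAP30-KO1 (KCNQ3), where 5.86% of the 12141 genes tested were, and 1 was apart and lower (KCNC4), where 4.65% were. These counts are near the background. Over the 26 genes the median difference (SAP30-KO1 minus Parental) was -2.83 rank points, with 18 means lower and 8 higher, against a median of 0.57 and 47.2% lower over all genes tested; over the 10 genes with a peak in all 6 libraries it was 0.06, with 5 lower and 5 higher, against 0.23. These medians are descriptions, as genes with peaks in few libraries enter the 26 through the group that has them. KCNH8 was among the lower means within the 1 kb limit, whereas its whole locus was higher in SAP30-KO1, as described below.

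KCNC4 had the largest difference among the 26 promoters. It encodes a fast-inactivating voltage-gated channel that repolarizes action potentials. Its promoter ranks were 76.7, 34.3 and 84.1 in Parental and 0, 19.0 and 3.15 in SAP30-KO1, so that 1 SAP30-KO1 library had no peak there and the others had weak ones. The means were 65.0 ± 26.8 (SD, n = 3) and 7.37 ± 10.2 (SD, n = 3), a difference of -57.7 (exact permutation test, two-sided, p = 0.1; adjusted p = 0.951 over the genes tested). The strongest summit lay 10 bp before the canonical start site, at position 110752926 of chromosome 1, in a stretch that it shares with the start of the divergent noncoding RNA gene KCNC4-DT, so the peak cannot be assigned to one of these genes. On the short arm of chromosome 1, where KCNC4 lies, the median difference of genes with a peak in all 6 libraries was 4.04, in the opposite direction. The 150 bases before its start site are shown because KCNC4 is the gene whose promoter rank differed most, and those of KCNMB4, KCNJ10 and KCNS3 because they had peaks in all 6 libraries and no annotated exon in this window. Each window precedes the start site nearest to the strongest promoter summit, which for KCNS3 is an alternative start downstream of the canonical one. Capitals mark GGGCGG or its complement CCGCCC, the GC box recognized by SP/KLF factors, with overlapping matches counted; coordinates are GRCh37.
KCNC4, chr1:110752786-110752935, plus strand: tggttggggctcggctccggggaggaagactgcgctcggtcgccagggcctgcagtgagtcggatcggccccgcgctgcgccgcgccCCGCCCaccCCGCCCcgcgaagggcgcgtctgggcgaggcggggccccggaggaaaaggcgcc
KCNMB4, chr12:70759920-70760069, plus strand: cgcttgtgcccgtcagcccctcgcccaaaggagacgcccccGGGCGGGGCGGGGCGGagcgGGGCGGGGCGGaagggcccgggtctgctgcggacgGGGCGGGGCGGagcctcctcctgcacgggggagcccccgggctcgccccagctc
KCNJ10, chr1:160039951-160040100, minus strand: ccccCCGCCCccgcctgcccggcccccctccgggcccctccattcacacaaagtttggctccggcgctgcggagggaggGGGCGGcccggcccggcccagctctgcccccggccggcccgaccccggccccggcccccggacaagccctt
KCNS3, chr2:18060500-18060649, plus strand: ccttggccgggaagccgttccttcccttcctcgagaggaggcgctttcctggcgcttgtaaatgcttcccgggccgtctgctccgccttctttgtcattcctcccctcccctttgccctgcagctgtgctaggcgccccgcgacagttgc
The KCNMB4 window held 7 matches, the KCNC4 and KCNJ10 windows 2 each and the KCNS3 window 0. In windows of this length before the canonical start, 63.2% of the 87 potassium channel genes and 52.5% of all protein-coding genes had a match. The CpG counts of the windows were 22 for KCNC4, 19 for KCNMB4, 16 for KCNJ10 and 11 for KCNS3.

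KCNQ3 differed in the other direction. It encodes a pore subunit that assembles with related subunits such as KCNQ5 to carry the M-type current. Its promoter ranks were 75.5, 50.4 and 41.9 in Parental and 85.8, 94.3 and 84.3 in SAP30-KO1, and every SAP30-KO1 library was above every Parental library. The means were 55.9 ± 17.5 (SD, n = 3) and 88.1 ± 5.37 (SD, n = 3), a difference of 32.2 (exact permutation test, two-sided, p = 0.1; adjusted p = 0.951). This peak was at an alternative start site inside intron 1, 159.3 kb downstream of the canonical start. At the canonical start itself only SAP30-KO1 replicate 2 had a peak, of rank 4.41. On the long arm of chromosome 8, which holds KCNQ3, the median difference of genes with a peak in all 6 libraries was -0.25. In limma, fitted on the ranks of all 12141 genes, neither KCNC4 nor KCNQ3 passed (adjusted p = 0.788 for both; unadjusted p = 0.0198 and 0.0133, the only ones under 0.05 among the 26 genes).

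KCNH8, a voltage-gated channel of the ether-a-go-go family, gave opposite readings on either side of the 1 kb limit. Within 1 kb of its start it had ranks of 37.2, 0 and 14.3 in Parental and no peak in any SAP30-KO1 library. The open site was a single locus, however, at chr3:19188396-19189299, whose summits fell on both sides of the limit, with the strongest 1156 bp before the start. Taken as a whole the locus had a peak in all 6 libraries, with ranks of 37.2, 18.7 and 14.3 in Parental and 63.9, 45.3 and 51.7 in SAP30-KO1. Its means were 23.4 ± 12.2 and 53.6 ± 9.45 (SD, n = 3), with the groups apart and higher in SAP30-KO1. With a window of 2.5 kb around the start sites the promoter ranks were 37.2, 18.7 and 62.8 in Parental and 63.9, 45.3 and 51.7 in SAP30-KO1, and the groups overlapped, since the peak of rank 62.8 in Parental replicate 3 lay at another start site inside the gene. KCNH8 was chosen for this account after its values were seen.

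Some promoter peaks of these genes lay at alternative start sites. The counts in this paragraph were not made over all genes, so they do not show a trait particular to potassium channel genes. Of 35 promoter loci of these genes (summits extended by 250 bp on each side and merged over the 6 libraries), 13 had a peak in all 6 libraries and 16 had their strongest summit more than 1 kb from the canonical start, a few of them just beyond it. A peak at the canonical start was found in any library for 20 of the 26 genes, and in all 6 for 7. KCNMA1, which has 57 annotated start sites, had no peak at its canonical start in any library and its promoter peak 286.8 kb downstream in intron 2, where the antisense gene KCNMA1-AS3 also starts. The strongest KCNAB2 peak lay 53.4 kb before the canonical start and within 1 kb of a start site of NPHP4. In all, 9 genes shared a promoter locus with a start site of another gene, mostly a noncoding RNA, and for these the peak may belong to either gene. KCNN2, by contrast, had its strongest peak in exon 1, 134 bp past the canonical start, and a weaker one in all 6 libraries 306.5 kb before it (ranks of 72.9, 56.3 and 58.7 in Parental and 32.1, 72.6 and 56.1 in SAP30-KO1).

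A further 16 genes had a promoter peak in 1 to 5 libraries. KCNK12, a two-pore subunit, had ranks of 25.2, 62.4 and 74.9 in Parental and 10.2, 66.5 and 0 in SAP30-KO1. KCNJ3, an inward rectifier gated by G proteins, had 0, 39.7 and 79.0 in Parental and no peak in SAP30-KO1. KCNE1, the auxiliary subunit of KCNQ1, had a rank of 49.2 in Parental replicate 3 alone, and KCNA3 and KCNK15 had a single peak each, of rank 2.54 and 1.93. The groups overlapped in all 16 except KCNC4. Of the genes often studied in breast cancer, KCNH1 and KCNMA1 were open in all 6 libraries, as given above. KCNN4, the intermediate-conductance calcium-activated channel, had a promoter peak only in Parental replicate 1 (rank 25.0), and the two-pore channels KCNK5 and KCNK9 had none. KCNN4, KCNK5 and KCNK9 had no open site in their bodies either.

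Counted per library, 19, 15 and 19 of the 87 genes had a promoter peak in Parental and 11, 14 and 15 in SAP30-KO1. The means were 17.7 ± 2.31 and 13.3 ± 2.08 (SD, n = 3), a difference of -4.33, and the groups met at 15. This difference was -3.67 without the genes on the long arm of chromosome 11. It was -3.33 with a promoter window of 2.5 kb and -2.67 with canonical starts only. Over all protein-coding genes the counts were 9882, 9015 and 9390 in Parental and 8977, 10507 and 9629 in SAP30-KO1, a difference of 275.3 in the other direction. The mean promoter rank of the 87 genes was 11.7, 10.2 and 12.8 in Parental and 7.68, 10.9 and 9.92 in SAP30-KO1 (11.6 ± 1.30 and 9.49 ± 1.63; SD, n = 3), with overlapping groups, while that of all genes was 29.2 ± 2.40 and 29.9 ± 3.52. These are descriptions without a test. Because the libraries come from whole cultures, a peak in fewer cells and a weaker peak in each cell cannot be told apart.

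Many promoters without a peak were rich in CpG. CpG content was measured as the observed over expected ratio in 300 bases around the canonical start (250 before it and 50 from it on). Genes were grouped by a peak at any start site, so some were measured away from their promoter peak. Examples are KCNMA1 (0.982), KCNQ3 (0.797) and KCNAB2 (0.403). Over all protein-coding genes the median ratio was 0.854 with a peak in all 6 libraries, 0.847 with a peak in 1 to 5 and 0.368 with none. Over the potassium channel genes the corresponding medians were 0.774, 0.715 and 0.686. Taken whole, the 87 genes had a median of 0.733, below the 0.778 of all protein-coding genes. A ratio over 0.6 was found for 34 of the 61 potassium channel genes without a peak (55.7%), against 36.1% of all genes without a peak. KCND3, a voltage-gated channel of the transient outward current, had a ratio of 1.16, and the inward rectifiers KCNJ12 and KCNJ4 had 1.15 and 1.05, all without a promoter peak. At the other end stood KCNE2 (0.0501), KCNJ13 (0.0734) and KCNJ15 (0.0786). The GC box GGGCGG was present in these 300 bases in 63.9% of the potassium channel genes without a peak, against 40.3% of all genes without one, and in 70.1% of all 87 against 61.3% of all genes. CCGGAAG, the motif of ETS factors common at housekeeping promoters, was present in 4.60% of the 87 genes and 14.1% of all genes, with both strands searched.

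**Figure D3:**
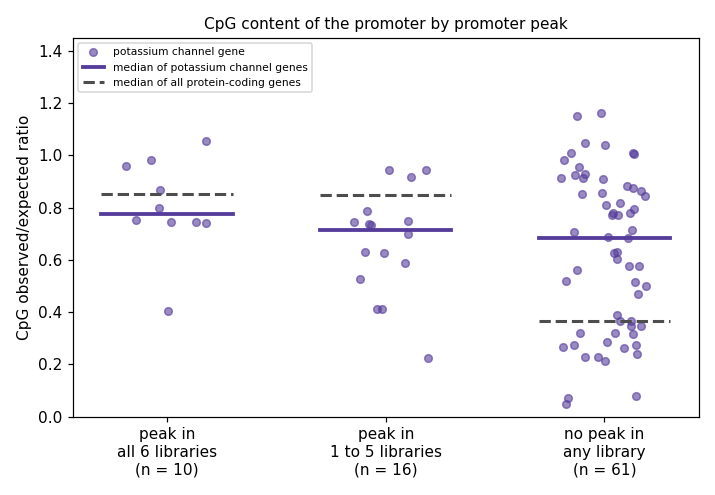
Observed over expected CpG ratio in 300 bases around the canonical start (vertical axis) of the 87 potassium channel genes. Genes are grouped by the number of libraries with a promoter peak at any start site. Points are genes (spread sideways for display), solid lines their medians and dashed lines the medians of all protein-coding genes. In genes without a peak the median was 0.686 for potassium channel genes and 0.368 for all genes.

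Inside gene bodies the potassium channel genes were not short of open sites. A body locus is an open site between the ends of the gene with no summit within 1 kb of its start sites. There were 205 body loci in 43 of the 87 genes (49.4%), against 19583 over all protein-coding genes, of which 37.3% had at least 1. This was 1.80 loci per 100 kb of gene, against 1.48 over all genes, and the potassium channel genes were also longer, with a median of 43.5 kb against 27.6 kb. Of the 205 loci, 160 (78.0%) lay in introns of the canonical transcript, 1 in an exon and 44 (21.5%) outside the canonical transcript, in the span of longer ones. At 7 loci a start site of another gene lay within 1 kb, and these may belong to either gene. A peak in all 6 libraries was present at 46 (22.4%, against 23.8% over all genes) and in a single library at 66 (32.2%, against 32.0%). Of the 61 genes without a promoter peak, 25 had a body locus and 36 had neither.

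A few long genes held most of these sites, as 9 genes with at least 10 body loci held 122 of the 205 (59.5%). KCNMA1, at 768.8 kb, had 24 body loci, 9 of them in all 6 libraries, or 3.12 per 100 kb. KCNQ5 had 16 (2 in all 6) and KCNS3 had 15 (8 in all 6), all 15 of the latter outside the canonical transcript of that gene. KCNMB2, a beta subunit of the KCNMA1 channel, had 14 (1 in all 6) and no promoter peak in any library. KCNAB1, a beta subunit of voltage-gated channels (2 in all 6), KCNQ1, the channel of heart and epithelia (2 in all 6), and KCNH7, an ether-a-go-go related channel (1 in all 6), had 11 each, again without a promoter peak. Of the 2 KCNQ1 loci in all 6 libraries, 1 lay within 1 kb of a start site of KCNQ1OT1. KCNH1 (3 in all 6) and KCNN2 (2 in all 6) had 10 each.

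**Figure D4:**
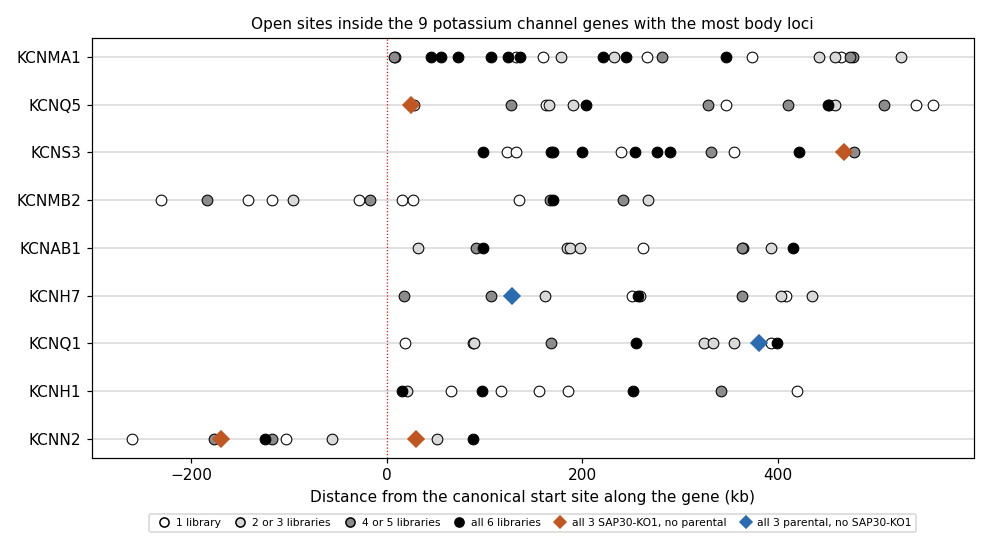
Body loci of the 9 potassium channel genes with the most, by their distance from the canonical start along the gene (horizontal axis, kb; dotted line, start); the fill of a circle gives the number of libraries with a peak, and diamonds mark loci called in every library of one group and in none of the other. The 24 loci of KCNMA1 and the 15 of KCNS3 include 9 and 8 in all 6 libraries.

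Some of the body loci shared by all 6 libraries ranked among the highest peaks of their lists. The site 244.7 kb into KCNMA1, in an intron, had 98.7, 98.9 and 97.1 in Parental and 98.0, 93.1 and 96.7 in SAP30-KO1. A site 87.5 kb into KCNH5, an ether-a-go-go channel without a promoter peak, had 90.8, 89.1 and 94.1 against 96.2, 85.5 and 89.1. The groups overlapped at both. The 151 bases around the strongest summit of the KCNMA1 site are shown, with capitals for TGANTCA. This pattern reads the same on both strands and allows any base at its center, so it is wider than the AP-1 motif TGA(C/G)TCA.
KCNMA1, 244.7 kb past the start, chr10:79152822-79152972, minus strand: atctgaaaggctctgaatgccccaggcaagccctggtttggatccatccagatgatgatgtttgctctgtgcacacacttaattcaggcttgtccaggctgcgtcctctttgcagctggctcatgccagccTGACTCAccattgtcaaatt
The motif TGANTCA was present once in this window, which was the only 1 with it among the windows of the 6 shared body loci of highest mean rank. In windows of 151 bases it was present at 11.7% of the body loci of potassium channel genes and 14.3% of those of all genes. In windows of 201 bases the shares were 18.0% and 21.3%, and among loci open in all 6 libraries 26.1% (12 of 46) and 25.6%.

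Body summits per 10000 summits of the list were 33.0, 28.2 and 33.4 in Parental and 32.9, 33.7 and 33.6 in SAP30-KO1. The means were 31.5 ± 2.87 and 33.4 ± 0.413 (SD, n = 3), a difference of 1.87 that was smaller than the spread in Parental and that fell to 0.22 without Parental replicate 2.

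Some body loci had a peak in the libraries of a single group only. A peak in all 3 SAP30-KO1 libraries and no Parental library was found at 8 of the 205 body loci (3.90%), against 1.50% of the body loci of all genes. The reverse was found at 3 (1.46%), against 0.996% of all. The first count was 14 without SAP30-KO1 replicate 1 and 20 when 2 of 3 libraries sufficed. The second was 7 without Parental replicate 3, 6 without SAP30-KO1 replicate 2, 9 when 2 of 3 libraries sufficed and 1 at a q value of 0.0001. The 8 loci lay in 7 genes, and their ranks were mostly in the middle of the lists. KCNN2 had 2 of them, one 169.6 kb before the canonical start with SAP30-KO1 ranks of 50.9, 67.5 and 44.4, and one in intron 2, 29.3 kb past it, with 58.3, 64.1 and 41.0. KCNQ5 had one in intron 1 (47.4, 28.8 and 75.9). KCNG2, a subunit that makes no channel alone, had one in intron 1 (36.0, 51.3 and 58.0). Another 3 were in intron 5 of KCNH8 (26.9, 72.9 and 22.7), in intron 9 of KCNQ3 (38.3, 17.4 and 59.0) and 467.3 kb past the KCNS3 start (31.4, 40.3 and 41.0). KCNG2 had no promoter peak in any library.

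The 3 loci called in Parental only were weaker or similar. One was in intron 15 of KCNQ1, with Parental ranks of 32.8, 31.6 and 54.4. Another was in intron 2 of KCNH7 (20.9, 23.6 and 39.8), and the third in intron 1 of KCNK3, an acid-sensitive two-pore channel (9.94, 28.4 and 9.28). Sequences follow for 3 sites called in a single group, 2 in SAP30-KO1 and 1 in Parental. They are given to show the sites themselves, with the same capitals. At unknown depth, a missing call does not show that a site was closed.
KCNN2, intron 2, SAP30-KO1 only, chr5:113727020-113727170, plus strand: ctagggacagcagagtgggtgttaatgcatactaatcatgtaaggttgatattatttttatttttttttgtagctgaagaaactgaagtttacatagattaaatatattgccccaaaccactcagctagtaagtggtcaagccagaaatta
KCNQ5, intron 1, SAP30-KO1 only, chr6:73356511-73356661, plus strand: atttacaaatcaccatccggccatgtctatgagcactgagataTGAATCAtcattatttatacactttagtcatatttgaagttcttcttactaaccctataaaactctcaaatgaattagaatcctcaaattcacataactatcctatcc
KCNQ1, intron 15, Parental only, chr11:2847195-2847345, plus strand: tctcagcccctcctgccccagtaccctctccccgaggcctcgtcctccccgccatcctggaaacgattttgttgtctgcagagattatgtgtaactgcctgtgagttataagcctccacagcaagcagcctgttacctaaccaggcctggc
Among these 3 windows TGANTCA was present in that of KCNQ5 only, as TGAATCA, whose center base is not that of the AP-1 motif. All 8 SAP30-KO1-only loci were searched in 201 bases and 1 held the motif, as did 26.9% of the SAP30-KO1-only body loci of all genes.

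**Figure D5:**
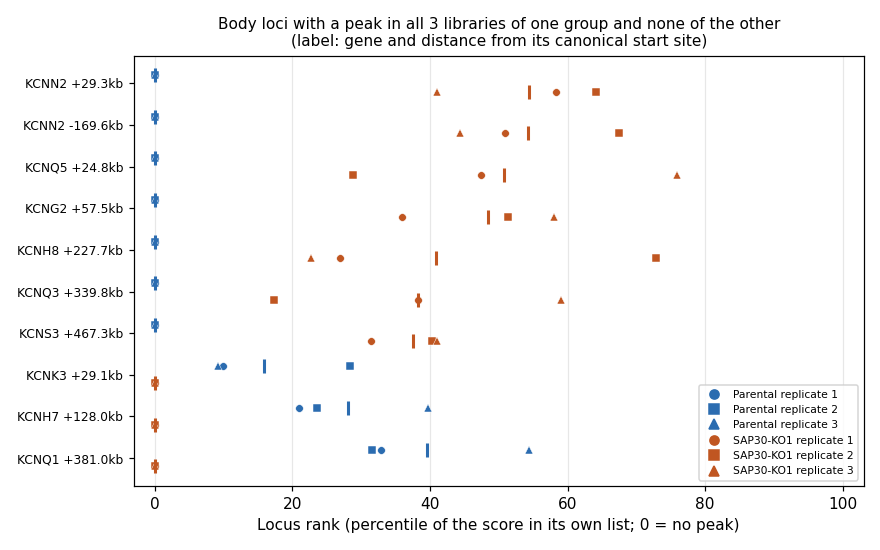
Rank in its own list (horizontal axis, percentile, 0 for no peak) of 10 of the 11 body loci called in every library of one group and in none of the other; colors, shapes and ticks as in the plot of promoter ranks, and labels give the gene and the distance from its canonical start. The 7 upper loci have ranks of 17.4 to 75.9 in SAP30-KO1 and 0 in Parental, and the 3 lower loci have ranks of 9.28 to 54.4 in Parental and 0 in SAP30-KO1.

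Counting also loci with a peak in both groups, 19 of the 205 body loci (9.27%) had ranks apart and higher in SAP30-KO1, against 5.31% of the body loci of all genes, and 8 (3.90%) were apart and lower, against 4.41%. In KCNMA1, 2 sites shared by all 6 libraries were higher in SAP30-KO1. The one 346.9 kb into the gene had ranks of 55.2, 33.4 and 36.1 in Parental and 63.9, 69.4 and 68.0 in SAP30-KO1, and the one at 136.1 kb had 67.3, 72.1 and 36.5 against 87.1, 73.9 and 88.2. In KCNT2, a sodium-activated channel, a site in intron 7 had 60.4, 69.0 and 46.9 in Parental and 69.6, 94.5 and 97.7 in SAP30-KO1. In the other direction, a site in intron 6 of KCNH7 had 75.6, 58.4 and 77.6 in Parental and 0, 44.6 and 41.7 in SAP30-KO1. A site in KCNMB3, a beta subunit of the KCNMA1 channel, lay outside the canonical transcript and within 1 kb of a start site of LRRFIP1P1. It had 84.1, 83.2 and 84.9 in Parental and 76.7, 40.0 and 56.5 in SAP30-KO1. KCNQ5 held sites of both kinds, 3 apart and higher and 1 apart and lower. KCNT2 and KCNMB3 were chosen after their values were seen.

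The long arm of chromosome 11 is given separately because peaks there ranked lower in SAP30-KO1 over all genes, with a median promoter difference of -12.5 and 90.0% of 231 genes lower. It holds 5 potassium channel genes, the two-pore channels KCNK4 and KCNK7, the auxiliary subunit KCNE3, and the adjacent inward rectifiers KCNJ1, the channel of potassium secretion in the kidney, and KCNJ5, gated by G proteins. KCNK4, KCNK7 and KCNE3 had no peak at the promoter or in the body. KCNJ5 had promoter ranks of 31.6, 0 and 10.2 in Parental and no promoter peak in SAP30-KO1. A site in its intron 1, within 1 kb of the start of KCNJ5-AS1, had 81.7, 68.4 and 38.6 in Parental and 0, 35.0 and 0 in SAP30-KO1. KCNJ1 had 1, 1 and 2 body summits in Parental and none in SAP30-KO1. Body summits of the 5 genes together numbered 2, 3 and 5 in Parental and 1, 1 and 0 in SAP30-KO1 (3.33 ± 1.53 and 0.667 ± 0.577; SD, n = 3). For KCNJ1 and KCNJ5 a difference of their own and the shift of the whole arm cannot be told apart.

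Other genes of ion transport were counted in the same way. Of 12 partner proteins of potassium channels (KCNIP, DPP, ABCC8 and ABCC9, and LRRC families), 4 had a promoter peak in any library and 1, KCNIP3, a calcium-binding partner of voltage-gated channels, in all 6, with ranks of 60.8, 73.1 and 70.1 in Parental and 90.2, 78.4 and 77.6 in SAP30-KO1, apart and higher. Of 22 voltage-gated sodium and calcium channels and HCN channels, 7 had a peak in any library and 5 in all 6, among them CACNA1C, SCN2A, SCN9A and SCN11A. The sodium channel SCN9A, with ranks of 97.2, 98.4 and 98.4 in Parental and 89.6, 96.8 and 93.2 in SAP30-KO1, was apart and lower. Of 11 potassium pumps and cotransporters, 8 had a peak in any library (72.7%) and 5 in all 6. The share with a promoter peak was thus 33.3% for the partners and 31.8% for the other cation channels, close to the 29.9% of the potassium channel genes, and above the 63.1% of all genes for the pumps and cotransporters. Body loci were sparser than in potassium channel genes in all 3 lists, at 0.838, 0.567 and 0.714 per 100 kb in the same order, as descriptions without a test.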

How the data were processed

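The authors sequenced ATAC-seq libraries as single-end reads of 75 bases, trimmed them with Trim Galore 0.4.5, aligned them to hg19 with Bowtie2 2.3.3.1, removed duplicates with Picard and called peaks in each library with MACS2 2.1.0 at a q value threshold of 0.05. Whether reads were shifted for the transposase, and how blacklisted and mitochondrial regions were treated, is not given in the sources used here. The deposited lists hold 1 summit per peak with a score in −log10 of the MACS2 q value; the unit was inferred from the lowest scores, 1.31 to 1.33, which lie just above the −log10 of the threshold. A score rises with depth as well as with accessibility, so scores were replaced by percentile ranks within each list. The lists hold no read counts, and no counting interval could be given.

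Groups and replicate numbers came from the sample labels. Start sites, exons and gene ends were those of GENCODE release 44 on GRCh37, and sequences were read from the GRCh37 genome. The promoter rank of a gene was the highest rank among its summits within 1 kb of any start site. Ranks of the 2 groups were tested gene by gene (exact permutation test of the means over 20 assignments, two-sided) and adjusted by the Benjamini-Hochberg method over all 12141 genes with a promoter peak; limma 3.58.1 in R 4.3.3 was an alternative. The longest run of unknown bases in a chromosome separated its arms. Alternatives were other q thresholds, equal list lengths, promoter windows of 500 bp and 2.5 kb, canonical starts only, other rank scales, a smaller summit extension of 100 bp, calls in 2 of 3 libraries, a block for the replicate number and fits that omitted 1 library at a time.

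The genes and lists were chosen with earlier results of these data known. Genes were named if they had a promoter peak in all 6 libraries, ranks that did not overlap between the groups, one of the 8 highest numbers of body loci (9 with the tie), a place on the long arm of chromosome 11, a body locus in one group only, or, for KCNMA1, KCNN4, KCNH1, KCNK5 and KCNK9, frequent study in breast cancer. Other genes are named as examples of the counts. Some items are not reported here.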

Additional observations from a re-analysis of the deposited data

How the results depend on the processing

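The count of genes apart and higher in SAP30-KO1 (1, KCNQ3) was 0 with canonical starts only, 2 with a promoter window of 2.5 kb (KCNQ3 and KCNT2), 0 in limma and 0 in limma with a replicate block, and stayed at 1 with each library left out. The count apart and lower (1, KCNC4) was 2 with lists of equal length (with KCNJ10), 2 with the window of 2.5 kb (with KCNMB3), 2 with a replicate block (with KCNMA1), and 0 in limma with or without the block (at an unadjusted p under 0.05, 1 gene in each direction, KCNQ3 and KCNC4); with each library left out it ranged from 1 to 5, and it was 5 without SAP30-KO1 replicate 2 (KCNC4, KCNJ10, KCNK1, KCNK12 and KCNMA1). The KCNQ3 difference was 1.47 with canonical starts only and 17.2 with the mean rank of its promoter summits, and the groups then overlapped. Over the left-out libraries it ranged from 25.2 to 42.0, and that of KCNC4 from -73.0 to -48.2. The number of SAP30-KO1-only body loci (8) was 20 when calls in 2 of 3 libraries sufficed and 10 to 14 with each library left out, with 14 without SAP30-KO1 replicate 1. The number of Parental-only loci (3) was 1 at a q value of 0.0001, 9 with calls in 2 of 3 libraries and 4 to 7 with each library left out. With each library left out, the difference in genes with a promoter peak ranged from -5.67 to -3.17, that of the mean promoter rank from -2.76 to -1.17 and that of body summits per 10000 from 0.22 to 2.80; at a q value of 0.0001 they were -2.67, -1.06 and 3.38. Leaving out a library relaxes the rule for a call, which by construction can raise such counts. Libraries of the same number did not deviate together (r = -0.0194, -0.0330 and 0.00843 across genes), so the replicate numbers were not taken to pair the samples, and the replicate block (lowest adjusted p of a potassium channel gene in limma, 0.820) left the count of genes apart and higher at 1 outside limma. The block was run on promoter ranks only. The unknown depth of the lists limits every statement on absent peaks.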
